A study of Homo sapiens with 6 samples.

Results

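Complexes II to V of the respiratory chain were described in SW620, a human colorectal cancer cell line derived from a lymph node metastasis, with and without a stable short hairpin RNA against ECM1. ECM1 encodes a secreted extracellular matrix glycoprotein, and the study asked how it bears on expression of the chemokine CCL20. Members were taken by gene symbol: the SDH subunits and SDH assembly factors, and all symbols beginning with UQC, COX plus a digit, ATP5, MT-CO, MT-CYB or MT-ATP. The rule found 75 of the 20476 genes in the deposited count table, of which 69 are nuclear and 6 lie in mitochondrial DNA. By complex these were 8 for complex II, 16 for complex III, 29 for complex IV and 21 for complex V, and 1 readthrough of an ATP5 gene with its neighbour was kept among the 75 with no complex.

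The comparison set 3 libraries of SW620 cells carrying the hairpin against ECM1 (shECM1) beside 3 libraries of SW620 cells carrying a negative control hairpin (shNC). All libraries therefore came from 1 cell line with a stably introduced hairpin, and the sources used here do not give the number of hairpin sequences or of clones. The labels do not say whether the libraries of a group were grown as separate cultures. The spread behind every p-value is that between these libraries and may be technical. The columns of the table carry short letter and number names, and matching them to the groups was an inference from those names. With the opposite reading of the letters, all directions below would turn around. Total counts ran from 9881720 to 16813951 per library.

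ECM1 itself served as the check of the labels. Its level was 38.8, 19.0 and 52.3 CPM (counts scaled to a library of 1000000, after TMM normalisation) in shNC replicates 1 to 3 and 14.8, 13.6 and 8.41 in shECM1. Every shECM1 library lay below every shNC library, and shNC replicate 2 was the control nearest to them. The log2 fold change, given throughout as shECM1 minus shNC, was -1.58 ± 0.32 (standard error, SE), with an edgeR quasi-likelihood p of 0.0973 after Benjamini-Hochberg adjustment. The shNC replicate 2 library also stood nearest to the shECM1 libraries on the first principal component of all genes, at 8.15 against -23.1 and -38.4 for the other controls and 15.1 to 21.6 for shECM1. Results are therefore given with and without that library. It was singled out for lying near shECM1, so leaving it out favours larger differences between the groups. Calls and p-values without it are thus no separate support. Leaving out any other single library gave 0 edgeR calls over all genes. Of 9 colorectal epithelial markers 8 passed the count filter, with a summed level of 10645 to 15336 CPM in shNC and 10320 to 11664 CPM in shECM1. Most of that sum was the keratins KRT8 and KRT18, at no less than 5708 and 3084 CPM in any library. EPCAM, CDH1 and VIL1 were at 297 CPM or more, whereas CDX2, CDH17, KRT20 and CDX1 were at 24.1 CPM or less. Markers of fibroblasts (2 of 7 tested), immune cells (0 of 5) and endothelium (2 of 4) summed to at most 14.0 CPM in any library, and PDGFRA, COL3A1, PTPRC, CD3E and KDR had 0 counts throughout.

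Complex II (succinate dehydrogenase) passes electrons from succinate to ubiquinone, complex III (the cytochrome bc1 complex) passes them on to cytochrome c, and complex IV (cytochrome c oxidase) passes them to oxygen. Complexes III and IV pump protons across the inner mitochondrial membrane, and complex V (ATP synthase) uses the returning protons to make ATP. Complex II is built from nuclear gene products alone, whereas complexes III, IV and V each join nuclear subunits with subunits made inside the mitochondrion. Colorectal tumours are known for high glycolysis, but they also respire.

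The members at a glance were slightly higher in shECM1 when nuclear and not when mitochondrial. Of the 67 members that passed the filter on low counts, 55 had a log2 fold change above 0 and 12 below it. The median was 0.17, against a median of 0.01 and 51.4% positive over the 12576 genes tested. Among the 61 nuclear members tested, 53 were positive with a median of 0.18. Among the 6 mitochondrial members, 2 were positive with a median of -0.09. Under the adjusted threshold of 0.05, edgeR called 0 members, as it called 0 of the 12576 genes (0%), and the adjusted p of members ran from 0.0996 to 0.995. At an unadjusted p under 0.05 there were 17 members higher (25.4% of 67) and 1 lower, where the background over all genes was 8.31% higher and 14.2% lower.

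Other tools gave few calls among the members. DESeq2, run on the same genes, called 5.5% of all genes, 0.851% as higher and 4.65% as lower. It called 3 members, namely ATP5MK and ATP5MC1 as higher and COX6B2 as lower. With no count filter edgeR called 0.256% of genes as higher, ATP5MK among them, and 2.83% as lower, COX6B2 among them. With shNC replicate 2 left out, edgeR called 23.9% of genes, 9.73% as higher and 14.1% as lower. In that comparison it called 11 members higher (16.4% of 67) and COX6B2 lower. DESeq2 without that library called 8.55% of genes higher and 12.9% lower, and 10 members higher and COX6B2 lower. The count of calls therefore rested on this library, and the median of the members rested on it less, at 0.20 without it. Groups did not overlap in 19 tested members with shECM1 higher (28.4%) and in 2 with shECM1 lower, SDHA and COX6B2, where all genes gave 11.2% higher and 13.2% lower.

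**Figure D1:**
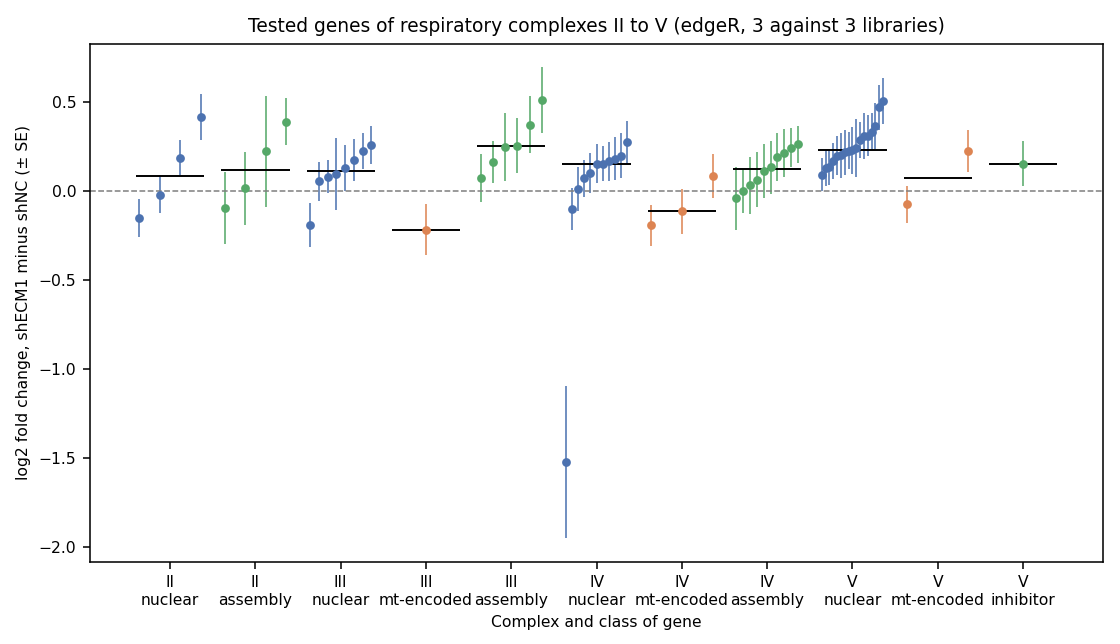
Log2 fold change (shECM1 minus shNC, y axis) of each tested member by complex and class (x axis), where points are genes, vertical lines are the SE of the fit, black bars are class medians, blue marks nuclear subunits, green assembly factors and the ATP synthase inhibitor, and orange mitochondrially encoded subunits. All 17 nuclear complex V subunits lie above 0 and COX6B2 stands alone at -1.52.

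Promoter stretches are shown for 6 members with positive log2 fold changes, picked after their values were seen, since many nuclear genes of the respiratory chain are known targets of the factor NRF1 and of ETS family factors (GABP, also called NRF2, among them). RefSeq sequence on GRCh38.p14 was at hand for 55 of the 75 members. The 250 bases before each start were searched on both strands for the NRF1 motif, whose letters are in capitals in the first 4 runs below, and for CCGGAAG (ETS) and AAGATGGC (YY1). Each run below reads 5′ to 3′ on the strand of its gene, and capitals mark the letters matched. Starts were those of RefSeq. By the gene spans of GENCODE release 29, the runs of ATP5F1C, ATP5MJ and UQCC5 lie inside the gene, and that of SDHD partly so.

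ATP5F1C (chr10:7788145-7788174, plus strand): gggagcttcgGCGCATGCGCgctgaggcct
ATP5MJ (chr14:103921530-103921559, minus strand): gcatcccctgcgcGCGCCTGCGCgctcggt
SDHD (chr11:112086753-112086782, plus strand): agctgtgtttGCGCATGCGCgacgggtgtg
UQCC5 (chr3:52536449-52536478, plus strand): cagagctgagGCGCCTGCGCcagctccttc
ATP5MK (chr10:103396619-103396648, minus strand): cagtgcaattCTTCCGGAAGtgtgggcggg
ATP5MC1 (chr17:48892678-48892764, plus strand): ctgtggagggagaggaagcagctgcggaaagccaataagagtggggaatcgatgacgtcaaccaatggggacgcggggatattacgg

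The runs of ATP5F1C, ATP5MJ, SDHD and UQCC5 hold the NRF1 letters. The ATP5MK run holds 2 overlapping ETS matches, 1 on each strand. The ATP5MC1 window held none of these letters, and its longest stretch free of annotated exons is shown. Over all members the NRF1 letters were in 17 of 65 promoter windows (26.2%), against 5.07% of all 35116 RefSeq windows and 8.64% of the 14743 windows of tested genes. ETS letters were in 20 windows (30.8%), against 8.52% and 14.0%. YY1 letters were in 2 (3.08%), against 1.36% and 1.76%. Of the 55 genes 32 held NRF1 or ETS letters and 4 held both, and some genes have more than 1 window. The median log2 fold change was 0.16 for the 15 tested members with the NRF1 letters and 0.18 for the 36 without. It was 0.19 for the 18 with the ETS letters and 0.155 for the 33 without. A match is a match of letters, not a shown site of binding.

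The nuclear subunits of complex V all lay on the higher side. All 17 tested nuclear subunits had a positive log2 fold change, from 0.09 (ATP5F1B) to 0.51 (ATP5MK), with a median of 0.23. Of these, 8 had an unadjusted p under 0.05 (47.1%, against 8.31% of all genes on the higher side). Groups did not overlap in 6 (35.3%, against 11.2%), and edgeR called 7 without shNC replicate 2 (41.2%, against 9.73%). Their summed counts made up 0.353%, 0.382% and 0.357% of all counts in shNC replicates 1 to 3 and 0.402%, 0.427% and 0.429% in shECM1. The lowest shECM1 library was above the highest shNC library.

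ATP5MK (ENSG00000173915, chr10:103389041-103396492, minus strand in GENCODE release 29 on GRCh38) encodes a small membrane subunit, also called DAPIT, found where ATP synthase forms dimers. Its level was 65.0, 86.4 and 71.6 CPM in shNC and 104, 117 and 95.2 CPM in shECM1. All shECM1 libraries were above all shNC libraries, and shNC replicate 2 was the highest control. The log2 fold change was 0.51 ± 0.13, with an edgeR adjusted p of 0.0996, a DESeq2 adjusted p of 0.0186 and an edgeR adjusted p of 0.00282 without shNC replicate 2. Its exons overlap a gene on either strand over 18.1% of their bases (the microRNA MIR1307 and TAF5), and whether counting used strand is not given in the sources used here.

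The membrane ring of ATP synthase is made of subunit c, which is encoded by 3 nuclear genes whose mature proteins are the same. ATP5MC1 (chr17:48892765-48895871) had 29.3, 34.3 and 28.2 CPM in shNC and 39.2, 42.8 and 45.1 CPM in shECM1, with no overlap. Its log2 fold change was 0.47 ± 0.12, with an edgeR adjusted p of 0.105 and a DESeq2 adjusted p of 0.0324. ATP5MC2 had 279, 317 and 306 CPM in shNC and 309, 337 and 343 CPM in shECM1, and its groups overlapped. ATP5MC3 had 178, 188 and 204 CPM in shNC and 195, 211 and 217 CPM in shECM1, again with overlap. Their log2 fold changes were 0.13 for both, with edgeR adjusted p of 0.432 and 0.451. ATP5MC1, the least abundant of the 3, gave 6.02%, 6.37% and 5.25% of the subunit c counts in shNC and 7.22%, 7.26% and 7.45% in shECM1. The difference between the paralogs was not tested, and whether reads were split between these genes was not measured.

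The remaining nuclear subunits of complex V were higher by less than ATP5MK and ATP5MC1. ATP5PB, the b subunit of the peripheral stalk that holds the catalytic head still, had 208, 244 and 204 CPM in shNC and 263, 280.0 and 284 CPM in shECM1. ATP5F1C, the gamma subunit that turns inside the head, had 192, 225 and 202 CPM in shNC and 245, 266 and 243 CPM in shECM1. Both were free of overlap, with log2 fold changes of 0.33 and 0.29 and edgeR adjusted p of 0.12 and 0.145. ATP5PF, another stalk subunit, and ATP5MJ and ATP5ME, small subunits of the membrane part, had log2 fold changes of 0.31, 0.36 and 0.31, and their groups overlapped by at least 1 library. ATP5ME shares 61.6% of its exon bases with genes on either strand, and ATP5PF 23.1%. ATP5F1B, the catalytic beta subunit and the most abundant nuclear member, had 1523, 1486 and 1635 CPM in shNC and 1575, 1666 and 1712 CPM in shECM1, a log2 fold change of 0.09 ± 0.09. ATP5IF1, which inhibits ATP hydrolysis by the enzyme, had a log2 fold change of 0.15 ± 0.13 with overlapping groups.

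Of the 4 subunits of complex II, all nuclear, 2 had positive and 2 negative values, with a median log2 fold change of 0.084, or 0.047 without shECM1 replicate 2 and 0.129 without shECM1 replicate 1. SDHD, a membrane anchor that binds ubiquinone, had 21.5, 24.4 and 20.8 CPM in shNC and 31.9, 27.5 and 29.6 CPM in shECM1, without overlap. Its log2 fold change was 0.42 ± 0.13, with an edgeR adjusted p of 0.118, and of 0.0191 without shNC replicate 2. SDHA, the flavoprotein that oxidises succinate, had 97.7, 93.2 and 102 CPM in shNC and 80.3, 90.9 and 92.6 CPM in shECM1, also without overlap but in the other direction. Its log2 fold change was -0.15 ± 0.10, with an edgeR adjusted p of 0.403, and SDHA has pseudogene copies that can share its reads. SDHD counts came to 22.0%, 26.1% and 20.4% of SDHA counts in shNC and to 39.7%, 30.3% and 32.02% in shECM1. The iron-sulfur subunit SDHB was at 0.19 ± 0.10 and the other anchor, SDHC, at -0.02 ± 0.10 on the log2 scale. The gap between the 2 genes was not tested as such.

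Assembly factors of complex II were few and 3 of 4 positive. SDHAF3, which helps SDHB mature, had 16.4, 16.4 and 14.7 CPM in shNC and 19.96, 21.0 and 21.3 CPM in shECM1. The groups did not overlap, and the log2 fold change was 0.39 ± 0.13, with an edgeR adjusted p of 0.131. SDHAF4, which guards free SDHA, was at -0.10 ± 0.20 on the log2 scale.

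**Figure D2:**
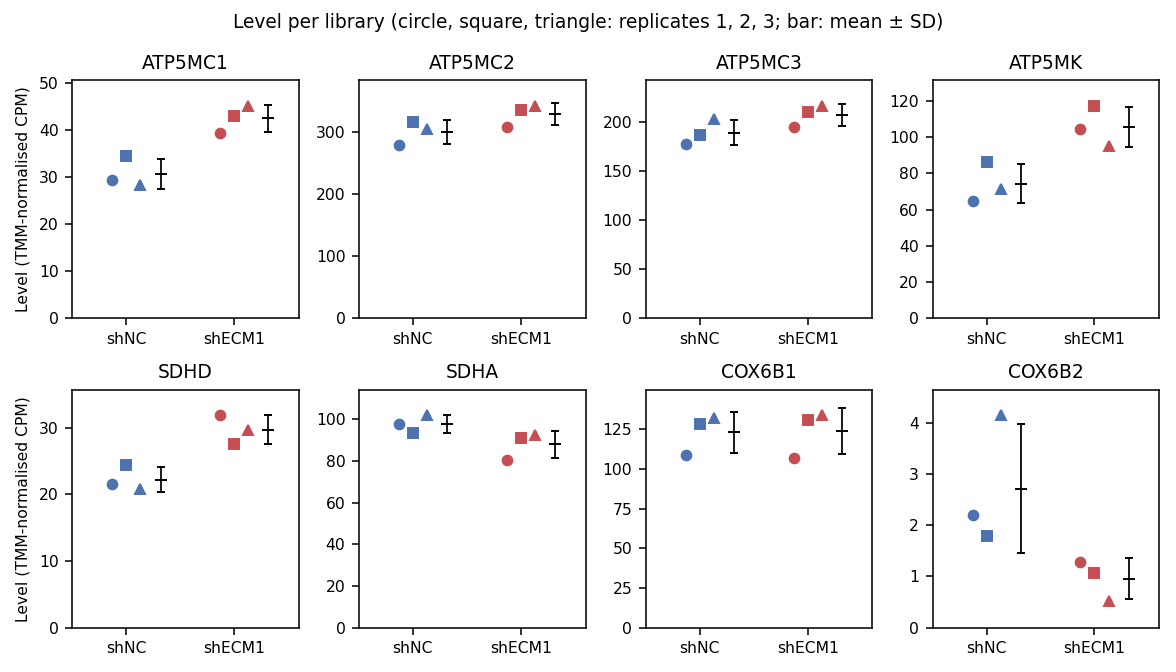
TMM-normalised level in CPM (y axis, from 0) of 8 nuclear members in each library, with circles, squares and triangles for replicates 1, 2 and 3 and bars for mean ± SD (n = 3). ATP5MC1, ATP5MK and SDHD are higher in every shECM1 library, SDHA and COX6B2 are lower in every shECM1 library, and the other 3 overlap.

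In complex III, 7 of 8 tested nuclear subunits were positive, with a median log2 fold change of 0.11 that ranged from 0.06 without shECM1 replicate 3 to 0.19 without shNC replicate 2. UQCRQ, a small subunit, had 95.8, 109.6 and 113 CPM in shNC and 118, 130.4 and 132 CPM in shECM1. UQCRH, the hinge protein that helps cytochrome c dock, had 227, 250.2 and 259.6 CPM in shNC and 269, 302 and 290.4 CPM in shECM1. Neither overlapped, and their log2 fold changes were 0.26 ± 0.11 and 0.22 ± 0.10, with edgeR adjusted p of 0.187 and 0.211. UQCRHL, a near copy of UQCRH, had a log2 fold change of 0.10 ± 0.20, and its counts are uncertain for that reason. UQCRC1, a core protein, was the subunit on the other side, with 506, 421 and 564 CPM in shNC and 400.4, 429 and 479 CPM in shECM1. Its groups overlapped and its log2 fold change was -0.19 ± 0.12, with an edgeR adjusted p of 0.376.

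All 6 assembly factors of complex III were positive, with a median log2 fold change of 0.25. Several of these factors act on cytochrome b, the mitochondrially encoded core of the complex. UQCC5 had 8.54, 11.9 and 10.9 CPM in shNC and 15.3, 12.4 and 17.2 CPM in shECM1. The lowest shECM1 library was just above the highest shNC library, which was replicate 2. The log2 fold change was 0.51 ± 0.18, with an edgeR adjusted p of 0.146. UQCC3 had 14.1, 13.7 and 12.4 CPM in shNC and 14.4, 17.6 and 19.98 CPM in shECM1, a log2 fold change of 0.37 ± 0.16. UQCC5 shares 20.1% of its exon bases with genes on either strand, and UQCC3 29.2%. UQCC1 and UQCC2, which bind newly made cytochrome b, were at 0.16 ± 0.12 and 0.08 ± 0.13 on the log2 scale.

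Complex IV held the member that differed most. Of its 11 tested nuclear subunits 9 were positive, with a median log2 fold change of 0.15, or 0.09 without shNC replicate 1 or without shECM1 replicate 2. COX6B2, known as the testis isoform of the COX6B subunit on the cytochrome c side of the enzyme, had 2.20, 1.80 and 4.15 CPM in shNC and 1.29, 1.07 and 0.512 CPM in shECM1. Its groups did not overlap, and its log2 fold change was -1.52 ± 0.43, with an edgeR adjusted p of 0.108 and a DESeq2 adjusted p of 0.0462. COX6B2 passed the count filter through the shNC libraries, all 3 of which reached the minimum against 2 of the shECM1 libraries, so it was tested because of the group in which it was high. The other 66 tested members reached the minimum in all 6 libraries. COX6B1, the widespread isoform, had 108, 128 and 132 CPM in shNC and 107, 131 and 134 CPM in shECM1, a log2 fold change of 0.01 ± 0.12. COX6B2 thus made up 1.99%, 1.38% and 3.05% of COX6B counts in shNC and 1.19%, 0.814% and 0.382% in shECM1. Its exons share 30.9% of their bases with AC020922.1 on the same strand, which had 0 counts in every library.

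Of the other subunits of complex IV, COX6C and COX5A had groups that did not overlap. COX6C had 107, 130.0 and 139 CPM in shNC and 148, 167 and 140.4 CPM in shECM1, a log2 fold change of 0.28 ± 0.12 with an edgeR adjusted p of 0.209. COX5A was at 0.155 on the same scale. COX4I1, a subunit that binds ATP, was at 0.07 ± 0.10 and COX7A2 at 0.20 ± 0.13 on the log2 scale, both with overlap. COX8A was at -0.10 ± 0.12, and it turned positive without shNC replicate 3 and with a correction for GC content. Of the 10 assembly factors tested, 8 were positive with a median of 0.12. COX7A2L, which joins complexes III and IV into supercomplexes and was grouped with these factors, had 107, 123.3 and 114 CPM in shNC and 136, 147 and 131 CPM in shECM1. Its groups did not overlap and its log2 fold change was 0.26 ± 0.10, with an edgeR adjusted p of 0.173, and of 0.0389 without shNC replicate 2. COX11, which delivers copper to MT-CO1, was at 0.24 ± 0.11, and COX20, a chaperone of MT-CO2, at 0.21 ± 0.14 on the log2 scale.

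The tissue-specific isoforms were barely counted, and 8 members were not tested. COX7A1, the muscle isoform of COX7A, had 0.169, 0.287 and 0.501 CPM in shNC and 0.695, 0.834 and 0.585 CPM in shECM1, without overlap but at 14 counts or fewer. COX4I2, COX6A2, COX8C, ATP5MGL and the readthrough ATP5MF-PTCD1 had at most 3 counts in any library. UQCR11, a small subunit of complex III, and COX7B2 had 0 counts in all 6 libraries. A count of 0 allows up to 3 counts, or 0.179 to 0.298 CPM by library, for counting error only. UQCR11 is a general subunit, and its exons share 10.9% of their bases with AC005943.1 on the same strand, which also had 0 counts. Counting both strands, 39 members have exons that overlap those of another gene. Exons of 14 nuclear members overlap a protein-coding gene on the same strand, and 8 of the 14 such partners in the table had 0 counts throughout. SDHAF2, with 30.5% overlap, had 1.27 to 2.12 CPM. Levels of such members may depend on how the authors' counting treated shared bases. That treatment is not given in the sources used here, and its effect was not tested.

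The 6 mitochondrially encoded members did not share the direction of the nuclear ones, though their median of -0.094 moved with single libraries. It was -0.028, -0.036 and -0.215 without shECM1 replicates 1, 2 and 3, and -0.06 without shNC replicate 1. MT-CYB, cytochrome b of complex III, had 1400.0, 1144 and 1253 CPM in shNC and 934, 987 and 1348 CPM in shECM1. MT-CO1, the catalytic subunit of complex IV, had 11027, 9449 and 11001 CPM in shNC and 8407, 8686 and 10470.2 CPM in shECM1. MT-CO2, which takes electrons from cytochrome c, had 2964, 2588 and 2871 CPM in shNC and 2303, 2368 and 3119 CPM in shECM1. In these 3 genes, as in MT-ATP6 below, shECM1 replicates 1 and 2 were below every shNC library and shECM1 replicate 3 was not. Their log2 fold changes were -0.22 ± 0.14, -0.19 ± 0.12 and -0.11 ± 0.13, with edgeR adjusted p of 0.381, 0.339 and 0.615.

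MT-CO3, another core subunit of complex IV, had 3855, 3752 and 3665 CPM in shNC and 3498, 3674 and 4799.7 CPM in shECM1. Its log2 fold change was 0.09 ± 0.12 and turned negative without shECM1 replicate 3. MT-ATP6, which forms the proton channel of ATP synthase with the subunit c ring, had 1289, 1229.6 and 1249 CPM in shNC and 1127, 1111 and 1337 CPM in shECM1, a log2 fold change of -0.08 ± 0.10. MT-ATP8, a small subunit read from the same transcript as MT-ATP6, had 218, 223 and 194 CPM in shNC and 286, 230.5 and 226 CPM in shECM1. It was the mitochondrial member whose groups did not overlap, with a log2 fold change of 0.23 ± 0.12 and an edgeR adjusted p of 0.271. Its exon shares 22.2% of its bases with MT-ATP6. MT-ATP8 made up 14.5%, 15.3% and 13.5% of the counts of both genes in shNC and 20.2%, 17.2% and 14.5% in shECM1, which overlapped.

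Per kilobase of gene, levels in shNC ran in the order MT-CO1 (6804 CPM per kilobase), MT-CO3 (4792), MT-CO2 (4105), MT-ATP6 (1844), MT-CYB (1109) and MT-ATP8 (1022). The last pair overlapped between libraries, MT-CYB at 1003 to 1227 and MT-ATP8 at 938 to 1076, and the other neighbours in this order did not overlap within shNC. In shECM1 the means of the highest 3 came in the same order, at 5958, 5090 and 3797, as did the values within every shECM1 library. Across the shECM1 libraries the ranges overlapped, both for MT-CO1 and MT-CO3 and for MT-CO3 and MT-CO2. The mean of MT-CYB, 955, was there below that of MT-ATP8, 1196, but the libraries overlapped, and in shECM1 replicate 3 MT-CYB was the higher at 1182 against 1094.

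**Figure D3:**
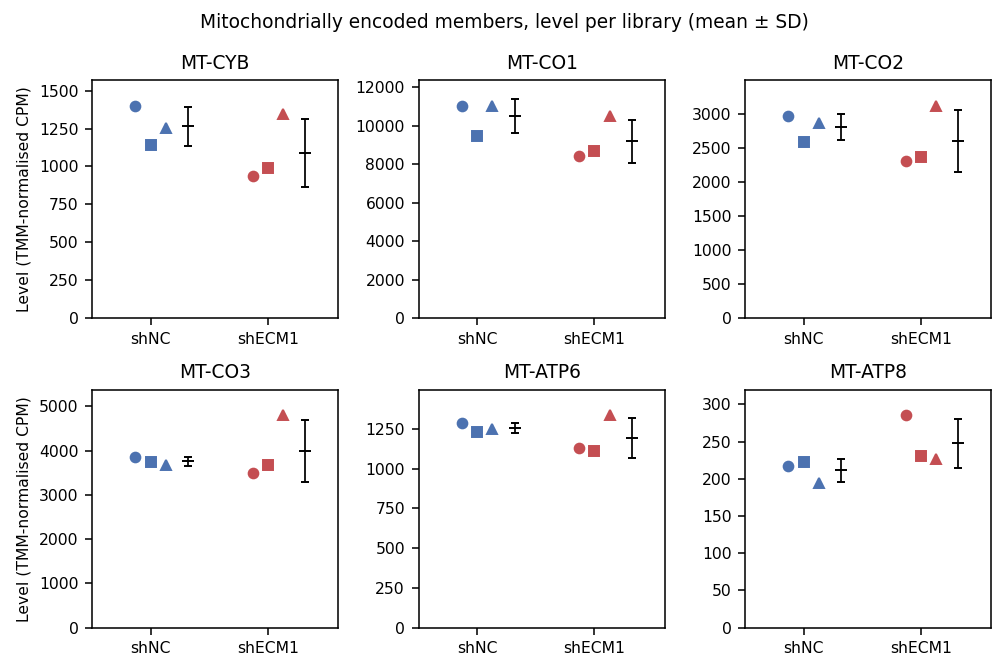
TMM-normalised level in CPM (y axis, from 0) of the 6 mitochondrially encoded members in each library, with circles, squares and triangles for replicates 1, 2 and 3 and bars for mean ± SD (n = 3). The triangle of shECM1 replicate 3 is the highest shECM1 point in every panel but that of MT-ATP8.

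Summed over members, nuclear and mitochondrial counts were compared within each library. Nuclear members made up 0.770%, 0.827% and 0.806% of all counts in shNC and 0.860%, 0.918% and 0.905% in shECM1, so every shECM1 library was higher. The mean was 1.117 times that of shNC. Mitochondrial members made up 2.08%, 1.89% and 1.91% in shNC and 1.69%, 1.70% and 2.15% in shECM1, which overlapped because shECM1 replicate 3 was the highest of all 6. The nuclear count was 0.370, 0.439 and 0.421 times the mitochondrial count in shNC and 0.509, 0.539 and 0.421 times in shECM1. The ratio was thus higher in shECM1 replicates 1 and 2 and within the controls in replicate 3. These sums carry no test.

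**Figure D4:**
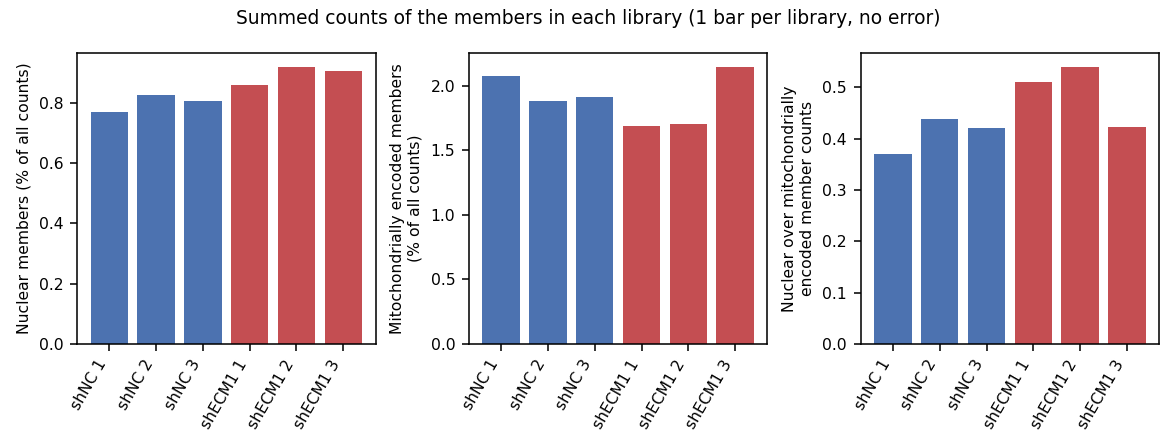
Summed counts of the members in each of the 6 libraries (x axis), as the nuclear share in percent of all counts, the mitochondrially encoded share in percent of all counts, and the ratio of the nuclear to the mitochondrial count, with 1 bar per library and axes from 0. The nuclear share is higher in all 3 shECM1 libraries, while shECM1 replicate 3 has the highest mitochondrial share of all, at 2.15%.

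Genes around these complexes were read from 6 lists. The 4 genes for cytochrome c and its partners (CYCS, HCCS, CYC1 and NDUFA4) were all positive. None had overlapping groups (100%, against 11.2% of all genes with shECM1 higher), but CYC1 only by 98.9 in shECM1 against 98.0 CPM in shNC. At an edgeR unadjusted p under 0.05, 2 were higher (50%, against 8.31% of all genes). The symbol rule did not take CYC1, a subunit of complex III, or NDUFA4, of complex IV, so the counts for those complexes leave them out. CYCS, cytochrome c itself, had 265, 292 and 249 CPM in shNC and 376, 370.2 and 311 CPM in shECM1, a log2 fold change of 0.39 ± 0.11 with an edgeR adjusted p of 0.108 and a DESeq2 adjusted p of 0.0387. Assembly factors with other symbols gave 23 positive of 27 tested, with a median of 0.23, and 8 higher (29.6%) and 0 lower at an unadjusted p under 0.05, against 8.31% and 14.2% of all genes. TMEM177, which steadies COX20, was at 0.58 ± 0.17, and PET100, an assembly factor of complex IV, at -0.70 ± 0.32 on the log2 scale.

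Most genes that maintain and express mitochondrial DNA had positive values, unlike the transcripts of that DNA. Of 26 tested, 24 were positive with a median log2 fold change of 0.32, and 13 were higher (50%) and 1 lower (3.85%) at an unadjusted p under 0.05, against 8.31% and 14.2% of all genes. SLIRP, which stabilises mitochondrial messenger RNA, had 43.4, 63.0 and 46.1 CPM in shNC and 69.1, 77.9 and 70.1 CPM in shECM1, a log2 fold change of 0.51 ± 0.14, with an edgeR adjusted p of 0.109 and a DESeq2 adjusted p of 0.0345. POLG, the polymerase of mitochondrial DNA, was at -0.30 ± 0.11 without overlap. Of all 13 protein genes of mitochondrial DNA, 5 were positive with a median of -0.11. Those of complex I included MT-ND3 at 0.40 ± 0.13 and MT-ND4 at -0.23 ± 0.10, each without overlap, with edgeR adjusted p of 0.123 and 0.19.

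The 10 tested regulators of respiratory genes gave 8 positive, with a median of 0.17 and 1 higher (10%, against 8.31% of all genes) at an unadjusted p under 0.05. That was PPRC1, a coactivator, at 0.53 ± 0.22 with overlap. NRF1, whose letters were searched in the promoters, had 19.0, 15.2 and 19.2 CPM in shNC and 15.1, 15.2 and 18.7 CPM in shECM1, a log2 fold change of -0.12 ± 0.16. Of 13 enzymes of the tricarboxylic acid cycle, which feeds complex II, 9 were positive with a median of 0.12, and 3 were higher (23.1%) and 1 lower (7.69%) at an unadjusted p under 0.05, against 8.31% and 14.2% of all genes. IDH3A, a subunit of isocitrate dehydrogenase, was at 0.34 ± 0.11 and OGDH, of the 2-oxoglutarate dehydrogenase complex, at -0.34 ± 0.12, both without overlap.

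Properties of the transcripts moved with the differences. Over 12502 tested genes the log2 fold change had a Spearman correlation of -0.385 with GC content and of -0.067 with transcript length, and over the 61 nuclear members of -0.218 and -0.197. These are across genes that share the same 6 libraries. Median GC content was 47.5% in the nuclear members and 49.9% in all genes, and median transcript length 1577 against 3096 bases. With the GC trend removed the median of all tested members was 0.13, and with the length trend removed 0.14. For the nuclear members alone it went from 0.175 to 0.168 with the GC trend removed, and to 0.145 with the length trend removed. For the assembly factors of complexes II to IV it went from 0.176 to 0.178 and to 0.164. Removing the GC trend took the medians of the nuclear subunits from 0.084 to 0.048 in complex II, from 0.114 to 0.044 in complex III and from 0.153 to 0.099 in complex IV. The mitochondrial members' median went from -0.094 to -0.156 with the GC trend removed and to -0.167 with the length trend removed. The 17 nuclear complex V subunits stayed positive in both, with medians of 0.232 and 0.225, though ATP5MC3 came down to 0.02 with the GC trend removed.

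**Figure D5:**
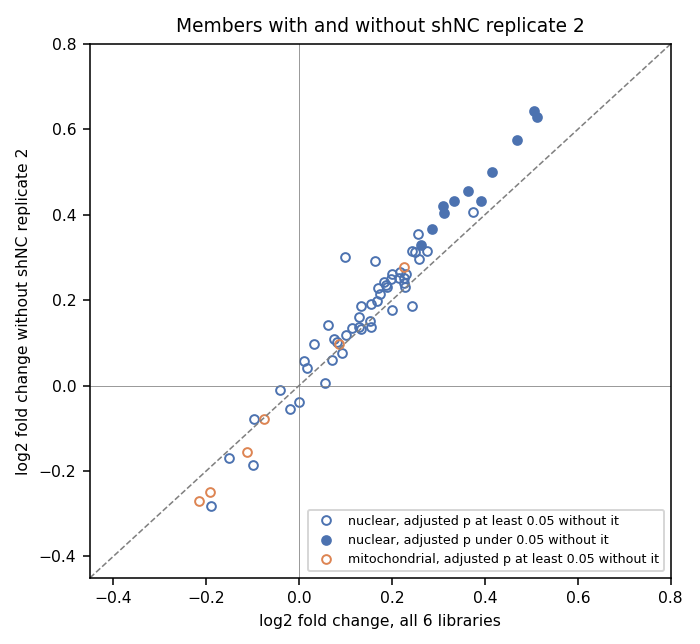
Log2 fold change (shECM1 minus shNC) of each tested member but COX6B2 with all 6 libraries (x axis) and with shNC replicate 2 left out (y axis), where blue marks nuclear and orange mitochondrially encoded members, filled points have an edgeR adjusted p under 0.05 without that library, and the dashed line marks equal values. The 11 filled points are all nuclear and lie above the line, and COX6B2, at -1.52 and -1.74, is off the scale.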

How the data were processed

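The labels' protocols name both an extraction of total RNA and a droplet kit for single cells, and do not state which of them, bulk RNA or pooled cells, a column holds. The authors deposited raw counts, 1 whole number per gene and library. The submitters' processing notes list Seurat, DESeq2, featureCounts, STAR and fastp, and the builds GRCh38 and hg38. For roles, versions, settings and strand, the entry is: not given in the sources used here. No row lacked a gene name, symbols were found for 20462 of 20476 identifiers, and GENCODE release 29 gave coordinates for all 75 members.

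The test was that of edgeR 4.0.16 in R 4.3.3 (filterByExpr by group with a minimum count of 10, TMM scaling, glmQLFit and glmQLFTest, no covariate). Benjamini-Hochberg adjustment covered all 12576 tested genes, and the threshold was 0.05. The SE is the size of the log2 fold change over the square root of F. TMM is the trimmed mean of M values. DESeq2 1.42.0 and limma-voom (limma 3.58.1) were alternatives, and the tests were tried on simulated data. Total counts per library, 9881720 to 16813951, set the counting error, which intervals and limits for a count of 0 alone cover. Libraries did not repeat each other: the lowest chi-square per gene between libraries of a group was 3.33.

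The members and the lists were chosen with earlier results of these data known. FASTKD4 of the list for mitochondrial DNA expression was not matched by its current symbol. Genes were named by rule: all mitochondrial members, and in each class the most abundant pair, the largest value in each direction and the smallest p. Paralogs of a subunit, members called by edgeR or DESeq2, and the smallest p in each direction of each outside list were added. ATP5F1C, ATP5ME, ATP5MJ, ATP5PB, ATP5PF, COX11, COX5A, SDHC, SDHAF2 and UQCC3 were chosen after their values were seen. Of 19 alternatives, 15 were set beforehand and 4 added after seeing the data (DESeq2 without shNC replicate 2, trends in GC content or transcript length removed by loess, and the length trend without shNC replicate 2).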

Additional observations from a re-analysis of the deposited data

How the results depend on the processing

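The counts of calls depended on the settings. Over all genes, edgeR called 0, against 505 with no count filter, 692 with DESeq2, 2732 with DESeq2 and shNC replicate 2 left out, and 3100 with the transcript length trend removed and shNC replicate 2 left out. The members called were 2, 3, 11 and 13 under the same 4 settings. Leaving out 1 library at a time gave 0 to 3037 genes and 0 to 12 members called, the upper ends without shNC replicate 2 and 0 members without any other library. Members at an unadjusted p under 0.05, 18 in all libraries, numbered 6 without shNC replicate 1, 7 without shECM1 replicate 2, and 6 to 23 over these 6 settings. The share of all genes at that threshold is not given for these settings, so the counts stand without a background. Leaving out 1 library gave 51 to 56 members with a positive value, medians of 0.14 to 0.23 (nuclear), -0.215 to -0.028 (mitochondrial, the ends without shECM1 replicates 3 and 1) and, for nuclear subunits, 0.047 to 0.129 (complex II), 0.056 to 0.188 (complex III), 0.087 to 0.183 (complex IV) and 0.229 to 0.287 (complex V), and a ratio of the nuclear to the mitochondrial count 1.14 to 1.28 times that of shNC. All 17 nuclear complex V subunits stayed positive in each of the 19 alternatives. Of 42 members followed through the alternatives, 34 had the same sign in each and 8 did not: COX18, COX4I1, COX6B1, COX8A, MT-CO3, SDHAF4, UQCC2 and UQCRHL, all at 0.1 or less in size. The 42 were picked mostly by the naming rule and are not all of the 67 tested members. Among those not followed, SDHC, UQCRFS1, COX15, SDHAF1 and COX17 also changed sign in some alternative. COX6B2 and PET100 gave no value with a count of at least 50 in 3 libraries. Same-numbered libraries did not deviate together, with correlations of -0.201 to -0.051. The check gave no sign of pairing by number, but so few libraries per group cannot settle whether the samples were paired. A fit with the replicate number as a block called 0 genes and 0 members, with 13 members at an unadjusted p under 0.05, again without a background share. The cause of the calls that came and went was not tested. Depth limits COX6B2, COX7A1, SDHAF2 and the other members with few counts.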
